A study of Mus musculus with 24 samples.

Results

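The genes described here make and fill the lysosome. They are the 22 genes whose symbols start with Atp6v or Atp6ap, which encode subunits and accessory proteins of the vacuolar proton pump (V-ATPase), and 19 listed lysosomal genes. These 41 genes were chosen by symbol from the array annotation and were read by 89 of the 34945 probe sets with a single gene symbol. The annotation held 18193 genes in all. Atp6v0c, the proteolipid gene of the pump, was not analysed here.

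RNA of the cerebral cortex was measured on 24 arrays (Affymetrix Mouse 430 2.0). All mice were FVB males at postnatal day 7. They were wild type (WT) or littermates without Fmr1 (Fmr1 KO). Fmr1 encodes FMRP, an RNA-binding protein found on polyribosomes, and its silencing causes fragile X syndrome. The deletion was present in every cell of the Fmr1 KO mice, so it was not limited to a cell type. Each genotype had 6 cleared lysates, each a pool of 2 mice, and each lysate gave 1 array of total RNA and 1 of polyribosomal RNA, from sucrose gradient fractions with mRNAs on 6 or more ribosomes. This made 4 groups of 6 arrays: WT polyribosomal, WT total, Fmr1 KO polyribosomal and Fmr1 KO total. The question for these genes was which of them were over- or under-represented on polyribosomes relative to the same lysate, and whether the loss of Fmr1 changed that or their levels.

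The V-ATPase uses ATP to pump protons into lysosomes, endosomes and, in neurons, synaptic vesicles. Its cytosolic V1 sector binds and splits ATP and turns a central stalk, and its membrane V0 sector carries the protons. The resulting acid activates the hydrolases of the lumen, and loss of several of these hydrolases causes lysosomal storage disease of the brain. The transcription factor TFEB and its relatives bind an E-box, called the CLEAR element, in front of many of these genes.

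Promoters are shown first because such a shared element could be read directly from sequence. Of the 41 genes, 33 had an entry in the RefSeq promoter table (build GRCm38.p6), which gives 250 bases before and 50 after the start of each gene. The palindrome TCACGTGA, which reads alike on both strands, was found in 7 of these 33 promoters (21.2%), against 304 of 27025 promoters in the table (1.12%). The shorter E-box core CACGTG, which lies inside TCACGTGA, was in 11 of 33 (33.3%), against 8.09% of all promoters. By group, TCACGTGA was in 3 of 16 V-ATPase promoters (18.8%) and 4 of 17 lysosomal promoters (23.5%). Among lists of related genes it was in 4 of 15 promoters of genes that sort hydrolases to the lysosome (26.7%), 3 of 20 of other lysosomal membrane proteins (15.0%), 1 of 8 of V-ATPase assembly genes (12.5%) and 1 of 25 of other hydrolases (4.0%). It was in 0 of 15 of genes that dock mTORC1 at the lysosome or belong to the TFEB family. The core CACGTG, however, was in 6 of these 15 promoters (40.0%). The core was also in 7 of 15 promoters of sorting genes (46.7%) and 7 of 25 of other hydrolases (28.0%). For other membrane proteins it was in 3 of 20 (15.0%), and for assembly genes in 2 of 8 (25.0%). The matches follow, 5′ to 3′ on the strand of the gene, with TCACGTGA in capitals; Ctsa has 2.
Mcoln1, chr8:3500452-3500501, plus strand: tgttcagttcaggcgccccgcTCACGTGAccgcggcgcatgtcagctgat
Ctsd, chr7:142387898-142387947, minus strand: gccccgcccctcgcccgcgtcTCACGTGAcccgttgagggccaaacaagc
Cln3, chr7:126583330-126583379, minus strand: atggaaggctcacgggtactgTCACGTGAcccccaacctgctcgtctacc
Atp6v1a, chr16:44139363-44139412, minus strand: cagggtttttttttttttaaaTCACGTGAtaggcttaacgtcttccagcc
Ctsa, chr2:164833739-164833772, plus strand: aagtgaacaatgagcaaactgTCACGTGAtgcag
Ctsa, chr2:164833766-164833795, plus strand: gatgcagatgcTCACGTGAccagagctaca
Atp6v0e, chr17:26676387-26676416, plus strand: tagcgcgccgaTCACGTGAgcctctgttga
Atp6v0d1, chr8:105566061-105566089, minus strand: aagagccaggccctactgcggTCACGTGA
The centre of the match lay 42 bases before the start in Mcoln1, 95 in Ctsd, 118 in Cln3 and 128 in Atp6v1a. In Ctsa the matches were centred 9 bases before and 8 after the start. In Atp6v0e the match was centred 6 bases after the start, and in Atp6v0d1 at it. A match is a description of these letters, and binding was not measured.

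Fmr1 itself served as a check of the labels. On polyribosomes its log2 values lay between 9.63 and 10.27 in the WT arrays and between 5.41 and 6.60 in the Fmr1 KO arrays (6 arrays each). The total RNA arrays gave 9.41 to 9.93 and 6.16 to 6.62. The genotypes were apart in both RNA kinds (two-sided exact permutation p = 0.00216, the smallest that 924 arrangements allow). Arrays had median log2 values of 3.17 to 3.20, and 38.8% to 40.0% of their probe sets reached a log2 value of 4. The mean correlation of an array with the others of its group was 0.993 to 0.997, and the lowest belonged to WT polyribosomal replicate 4. Of 8 markers of excitatory cortical neurons 6 were measured, among them Neurod6, Tbr1 and Bcl11b, while 4 of 6 markers of other brain regions stayed below the limit for testing.

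Testing required a log2 value of 4 or more on 6 or more of the compared arrays, and each gene was read by its brightest probe set. By this limit 34 of the 41 genes were tested in all 5 comparisons and 2 more, Atp6v0e and Gusb, in some. The 5 untested genes were V-ATPase isoforms: Atp6v0a4, Atp6v0d2, Atp6v1b1, Atp6v1c2 and Atp6v1e2. Their mean log2 values over the 24 arrays were 2.15, 2.31, 2.03, 2.86 and 2.89, and none reached 4 on any array.

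In WT cortex the V-ATPase did not move as a block. Of its 17 tested genes, 7 were higher on polyribosomes than in the total RNA of the same lysates, 4 were lower, and 6 did not pass the test (limma adjusted p under 0.05, lysate as a block). Over all genes tested, 37.5% were higher and 28.4% lower, so the V-ATPase shares of 41.2% and 23.5% lay near the background. The median log2 difference was 0.11 over the V-ATPase genes and 0.09 over all 9725 genes. The V-ATPase median was 0.22 without probe sets whose names end in _x_at or _s_at, and 0.21 without replicate 3. Both medians rest on fewer genes, and Atp6v0e could not be tested with a replicate left out. The V1 sector was spread widest: of its 9 tested genes 5 were higher and 3 lower, and a single gene, Atp6v1g2, did not pass. In the V0 sector, 1 of 6 was higher, 1 lower and 4 did not pass. The lower one, Atp6v0e, passed the limit for testing through the total arrays alone, so its fall was fixed in advance. It is also counted among the 4 lower V-ATPase genes. Every difference below is polyribosomal minus total, on the log2 scale, unless genotypes are compared. Where levels are compared between genotypes, fewer cells of a type and less RNA per cell cannot be told apart in these bulk lysates.

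The subunits of the V1 rotor, stalk and ATP-binding head that were higher on polyribosomes began with Atp6v1d, the D subunit of the central rotor. Its log2 values were 11.87, 11.98 and 12.04 (lowest, median and highest) in WT polyribosomal RNA and 11.18, 11.23 and 11.29 in WT total RNA. Every polyribosomal value thus lay above every total value, and the difference was 0.74 ± 0.08 (SE, 1.67-fold, adjusted p = 1.03e-05). In Fmr1 KO the difference was 0.81 ± 0.08 (SE, adjusted p = 7.01e-06), again without overlap. Atp6v1e1, the E subunit of the peripheral stalk, ran from 11.34 over 11.49 to 11.71 in WT polyribosomal RNA and from 10.74 over 10.89 to 11.01 in total RNA. It differed by 0.65 ± 0.09 (SE, 1.57-fold, adjusted p = 6.10e-05) in WT and by 0.78 ± 0.08 (SE, adjusted p = 8.61e-06) in Fmr1 KO. Its groups did not overlap in either genotype.

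Atp6v1b2 encodes the brain form of the B subunit, which forms the ATP-binding head together with the A subunit. Its WT values were 11.41, 11.73 and 11.90 on polyribosomes against 11.15, 11.26 and 11.31 in total RNA, with no overlap. The difference was 0.46 ± 0.09 (SE, 1.37-fold, adjusted p = 0.000857) in WT and 0.42 ± 0.08 (SE, adjusted p = 0.000875) in Fmr1 KO. Atp6v1c1, the C subunit that links head and membrane sector, differed by 0.43 in WT and 0.48 in Fmr1 KO, without overlap in either genotype. For Atp6v1a, the catalytic A subunit, the 6 WT lysates gave differences from 0.10 to 0.52, with a mean of 0.38 (adjusted p = 0.00245). In Fmr1 KO its lysates ran from -0.05 to 0.60, with a mean of 0.23 that did not pass (adjusted p = 0.0518). The other probe set of Atp6v1a did not pass in either genotype, at 0.19 in WT and 0.06 in Fmr1 KO.

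The subunits on the other side were Atp6v1h, Atp6v1f and Atp6v1g1. Atp6v1h, the regulatory H subunit, stood at 10.42, 10.61 and 10.82 in WT polyribosomal RNA and at 11.35, 11.39 and 11.46 in WT total RNA. All polyribosomal values were below all total values, and the difference was -0.80 ± 0.09 (SE, adjusted p = 1.42e-05), or 1.74-fold lower. In Fmr1 KO it was -0.86 ± 0.11 (SE, adjusted p = 4.05e-05), with lysates from -1.44 to -0.59. Atp6v1f, the F subunit of the central stalk, stood at 10.65, 10.89 and 11.20 on WT polyribosomes and at 11.64, 11.71 and 11.74 in total RNA. Its difference was -0.79 ± 0.10 (SE, 1.73-fold lower, adjusted p = 2.83e-05) in WT and -0.74 ± 0.10 (SE, adjusted p = 5.59e-05) in Fmr1 KO, and its groups were apart in both.

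The G subunit of the peripheral stalk has a broadly expressed form, Atp6v1g1, and a neuronal form, Atp6v1g2. Atp6v1g1 ran from 11.52 over 11.89 to 12.06 in WT polyribosomal RNA and from 12.35 over 12.41 to 12.52 in WT total RNA, a difference of -0.57 ± 0.10 (SE, adjusted p = 0.000358). Atp6v1g2 ran from 10.22 over 10.86 to 11.32 and from 10.75 over 10.95 to 11.13, with a difference of -0.08 ± 0.13 (SE, adjusted p = 0.591). The first pair of groups was apart and the second overlapped. Over the 12 lysates of both genotypes Atp6v1g1 stood further below its total level than Atp6v1g2 by -0.46 ± 0.25 (SD), in 12 of 12 lysates (two-sided exact sign-flip permutation p = 0.000488, adjusted p = 0.000854 over 7 pairs of member genes). That test takes the 12 lysates as independent, although lysates of the 2 genotypes that carry the same number often deviated together. With the 2 lysates of each number averaged, an alternative chosen after seeing the data, the exact p was 0.03125 (adjusted p = 0.04375), the smallest that 6 numbers allow. Both adjustments were over 7 pairs, among them Atp6v0e with Atp6v0e2, whose difference was fixed by the limit for testing. The low p of that pair can lower the adjusted p of the others, here and below.

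In the V0 sector Atp6v0d1, the subunit that couples the rotor to the membrane ring, was the gene that was higher. Its values were 11.40, 11.51 and 11.63 on WT polyribosomes and 10.85, 10.98 and 11.07 in WT total RNA, with no overlap. The difference was 0.52 ± 0.08 (SE, 1.44-fold, adjusted p = 0.000178) in WT and 0.51 ± 0.07 (SE, adjusted p = 8.54e-05) in Fmr1 KO. The Fmr1 KO lysates lay close together, between 0.42 and 0.61.

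The small e subunit has 2 genes. Atp6v0e stood at 3.58, 3.74 and 3.87 in WT polyribosomal RNA and at 4.51, 4.71 and 4.77 in WT total RNA. It passed the limit of 4 through the total arrays alone and had to differ for that reason, so no size or test of its difference is given, alone or against Atp6v0e2. That pair still entered the adjustment of the pair tests. Atp6v0e2, the brain-enriched form, stood at 10.16, 10.70 and 11.02 against 10.59, 10.67 and 10.71, a difference of -0.04 ± 0.11 (SE, adjusted p = 0.781).

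By their brightest probe sets the a subunits, which steer the pump to its membrane, did not pass in either genotype. Atp6v0a1 differed by -0.08 ± 0.10 (SE) in WT and -0.24 ± 0.14 (SE) in Fmr1 KO, where its lysates spread from -0.84 to 0.24. Atp6v0a2 differed by 0.22 ± 0.12 (SE) and 0.13 ± 0.08 (SE). Between them the difference was -0.33 ± 0.42 (SD), below 0 in 8 of 12 lysates (exact sign-flip permutation p = 0.0215, adjusted p = 0.0251). It lost its call without replicate 1 (-0.30, adjusted p = 0.0775), replicate 5 (-0.27, adjusted p = 0.0859) or replicate 6 (-0.32, adjusted p = 0.0547), and with equal-numbered lysates averaged (exact adjusted p = 0.0625). Atp6v0b, a further proteolipid, differed by -0.02 in WT and -0.05 in Fmr1 KO, with overlapping groups.

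Of the accessory genes, Atp6ap1, whose product helps to assemble the pump in the endoplasmic reticulum, was higher on polyribosomes. It stood at 10.42, 10.86 and 10.92 on WT polyribosomes against 10.18, 10.39 and 10.45 in total RNA. The groups overlapped slightly, but each of the 6 WT lysates was higher on its polyribosomes, by 0.22 to 0.52. The mean difference was 0.44 ± 0.08 (SE, 1.35-fold, adjusted p = 0.000633) in WT and 0.30 ± 0.09 (SE, adjusted p = 0.0149) in Fmr1 KO, where it did not pass without replicate 2 or 4 (adjusted p up to 0.0540). Atp6ap2, also known as the prorenin receptor, differed by 0.11 ± 0.09 (SE) and 0.10 ± 0.08 (SE) and did not pass by its brightest probe set. Its dimmest, 1423662_at, was higher by 0.24 (adjusted p = 0.0307) in WT and 0.25 (adjusted p = 0.0253) in Fmr1 KO. By the brightest probe sets Atp6ap1 exceeded Atp6ap2 in 11 of 12 lysates, by 0.26 ± 0.16 (SD, exact sign-flip adjusted p = 0.00137, and 0.04375 with equal-numbered lysates averaged).

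**Figure D1:**
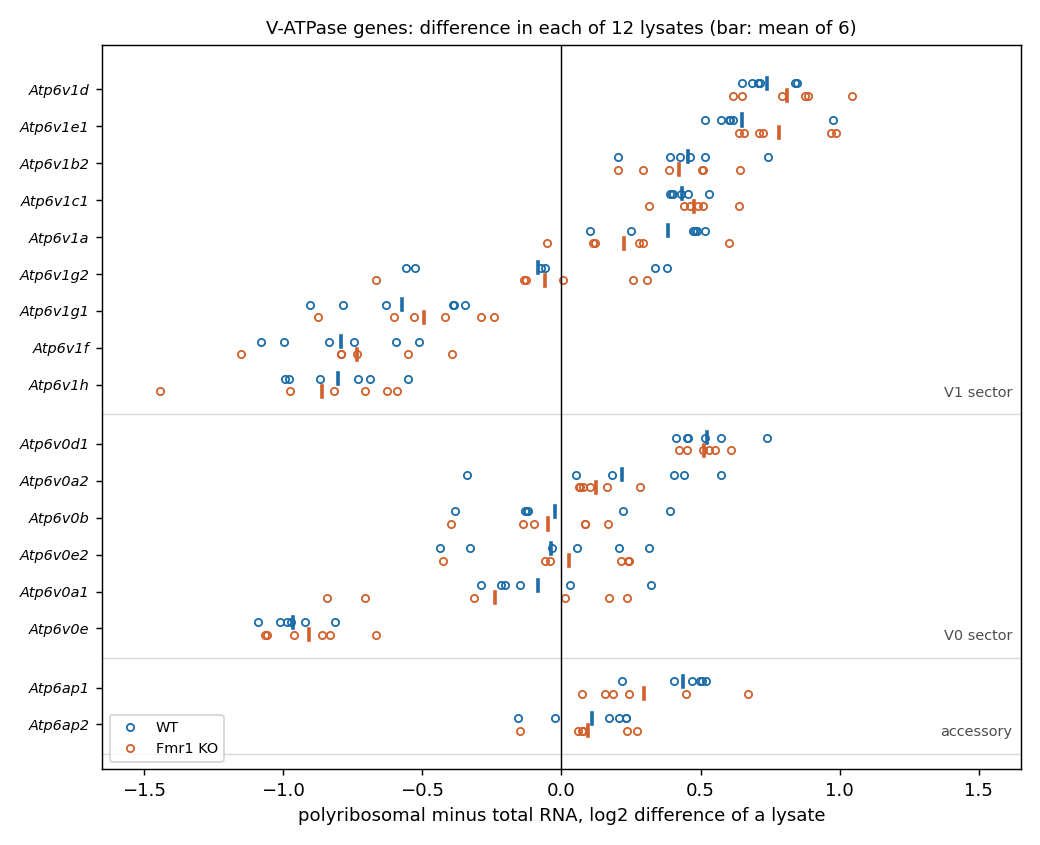
Polyribosomal minus total log2 difference (horizontal axis) of each of the 17 tested V-ATPase genes (rows, by sector), with a ring for each of 6 WT (blue) and 6 Fmr1 KO (orange) lysates and a bar at the mean of 6. Atp6v1d, Atp6v1e1, Atp6v1b2, Atp6v1c1, Atp6v0d1 and Atp6ap1 lie right of 0 in all 12 lysates, and Atp6v1g1, Atp6v1f and Atp6v1h lie left of 0 in all 12. Atp6v0e is drawn but not listed, because it passed the limit for testing through the total arrays alone.

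All 19 lysosomal genes were tested in WT, where 8 were higher on polyribosomes (42.1%), 4 lower (21.1%) and 7 did not pass. These shares, too, lay near the 37.5% and 28.4% of all genes, and the median difference was 0.19. The 4 lower genes became 1 to 3 when any replicate was left out, where Gusb no longer met the limit for testing. Gusb, 1 of the 4, met that limit through the total arrays alone. Soluble proteins other than cathepsins held 5 of the 8 higher genes. Tfeb, at log2 values of 4.01 to 4.17 on WT polyribosomes and 3.90 to 4.08 in total RNA, close to the limit of detection, differed by 0.10 ± 0.08 (SE, adjusted p = 0.302).

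Among the membrane proteins Mcoln1, the lysosomal calcium channel, had the highest difference of the 36 tested members in WT. It stood at 6.998, 7.33 and 7.68 on WT polyribosomes and at 6.35, 6.54 and 6.65 in WT total RNA, without overlap. The difference was 0.83 ± 0.11 (SE, 1.77-fold, adjusted p = 6.48e-05) in WT and 0.74 ± 0.08 (SE, adjusted p = 1.08e-05) in Fmr1 KO, where the groups were also apart. Scarb2, which carries glucocerebrosidase to the lysosome, differed by 0.24 (adjusted p = 0.0529) and 0.19 (adjusted p = 0.108). Cln3, the gene of juvenile Batten disease, stood near the limit, at 3.77 to 4.39 in WT, and differed by -0.14 in WT and 0.01 in Fmr1 KO without passing.

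Lamp1 and Lamp2, the most abundant proteins of the lysosomal membrane, went opposite ways by their brightest probe sets. Lamp1 ran from 10.57 over 11.04 to 11.09 on WT polyribosomes and from 10.56 over 10.73 to 10.89 in total RNA, a difference of 0.22 ± 0.09 (SE, 1.17-fold, adjusted p = 0.0413). Lamp2 ran from 7.51 over 7.78 to 7.93 and from 7.78 over 7.99 to 8.27, a difference of -0.25 ± 0.08 (SE, adjusted p = 0.0207). Both pairs of groups overlapped, while 5 of 6 WT lysates were higher for Lamp1 and 6 of 6 lower for Lamp2. Lamp1 exceeded Lamp2 in 12 of 12 lysates, by 0.52 ± 0.24 (SD, exact sign-flip adjusted p = 0.000854, and 0.04375 with equal-numbered lysates averaged). In Fmr1 KO the differences were 0.25 and -0.31 (adjusted p = 0.0175 and 0.0210). These calls were thin. In WT, Lamp1 did not pass without replicate 1, 2, 3, 4 or 6 (adjusted p up to 0.0901), and Lamp2 did not pass without replicate 1, 2 or 3 (up to 0.0648). In Fmr1 KO, Lamp1 did not pass without replicate 4 (up to 0.0541), and Lamp2 did not pass without replicate 3, 5 or 6 (up to 0.0714).

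The direction of Lamp2 depended on the probe set. Probe set 1416343_a_at was higher on polyribosomes by 0.38 ± 0.12 (SE, adjusted p = 0.0122) in WT and 0.44 ± 0.09 (SE, adjusted p = 0.00161) in Fmr1 KO. Probe set 1428094_at was lower, by -0.36 ± 0.09 (SE) and -0.41 ± 0.10 (SE), as was 1434503_s_at, the brightest, by -0.25 and -0.31. The remaining one, 1416344_at, differed by 0.01 in WT and 0.00 in Fmr1 KO. Lamp2 yields splice forms with different last exons, and which form each probe set reads was not tested. The order of Lamp1 and Lamp2 given above therefore holds for the brightest probe sets alone.

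Of the 5 cathepsins, Ctsl, a cysteine protease, was higher on polyribosomes, and Ctsz, a carboxypeptidase, was lower. Ctsl stood at 10.08, 10.53 and 10.59 on WT polyribosomes and at 9.66, 9.81 and 9.89 in total RNA. The groups were apart, with a difference of 0.66 ± 0.09 (SE, 1.58-fold, adjusted p = 4.49e-05) in WT and 0.70 ± 0.08 (SE, adjusted p = 1.75e-05) in Fmr1 KO. Ctsz stood at 7.51, 7.85 and 8.05 against 7.91, 8.09 and 8.24, with overlap, and was lower in 6 of 6 lysates of each genotype. Its difference was -0.23 ± 0.09 (SE, adjusted p = 0.0361) in WT and -0.21 ± 0.08 (SE, adjusted p = 0.0294) in Fmr1 KO. It did not pass without replicate 1, 3, 5 or 6 in WT (adjusted p up to 0.114), nor without replicate 2, 3, 4 or 6 in Fmr1 KO (up to 0.0905).

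Ctsb, the other abundant cysteine cathepsin, differed by 0.19 ± 0.08 (SE, adjusted p = 0.0657) in WT and by 0.24 ± 0.08 (SE, adjusted p = 0.0186) in Fmr1 KO, where the call was lost without replicate 2 or 4. By the brightest probe sets, Ctsl exceeded Ctsb in 12 of 12 lysates: Ctsb minus Ctsl was -0.47 ± 0.11 (SD, exact sign-flip adjusted p = 0.000854, and 0.04375 with equal-numbered lysates averaged). The other 3 probe sets of Ctsb were higher in WT, with differences up to 0.57. Ctsd, the aspartic protease, had a mean difference of 0.00 ± 0.10 (SE) in WT, with lysates from -0.41 to 0.26. Its difference exceeded that of Ctsz by 0.16 ± 0.27 (SD) in 8 of 12 lysates, which did not pass (exact sign-flip adjusted p = 0.0688). Ctsa, protective protein of Glb1, differed by 0.19 in WT and 0.14 in Fmr1 KO without passing.

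The other soluble proteins were led by Glb1, Ppt1 and Tpp1, each mutated in a neuronal storage disease. Glb1, the acid beta-galactosidase, stood at 6.16, 6.82 and 6.97 on WT polyribosomes and at 5.71, 5.98 and 6.19 in total RNA, a difference of 0.71 ± 0.11 (SE, 1.63-fold, adjusted p = 0.000143). Ppt1, a palmitoyl thioesterase, stood at 6.69, 6.93 and 7.02 against 5.96, 6.15 and 6.63, a difference of 0.66 ± 0.10 (SE, 1.58-fold, adjusted p = 0.000113). Tpp1, a tripeptidyl peptidase, stood at 6.58, 7.03 and 7.48 against 6.00, 6.46 and 6.80, a difference of 0.65 ± 0.13 (SE, 1.57-fold, adjusted p = 0.00135). The groups of Ppt1 were apart, and those of Glb1 and Tpp1 overlapped at their edges, although each gene was higher on polyribosomes in 6 of 6 lysates. Tpp1 had wide spread in WT, from 0.13 in replicate 4 to 1.19 in replicate 6. In Fmr1 KO the differences were 0.53, 0.74 and 0.51, each past the test.

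Man2b1, the lysosomal alpha-mannosidase, and Psap, the precursor of the saposins, were higher on WT polyribosomes by 0.35 ± 0.10 (SE, adjusted p = 0.00938) and 0.30 ± 0.09 (SE, adjusted p = 0.0124). Each was higher in 5 of 6 WT lysates, and replicate 4 was the exception for both, at -0.05 for Man2b1 and -0.07 for Psap. In Fmr1 KO their differences of 0.19 and 0.14 did not pass (adjusted p = 0.0800 and 0.205). Hexa, the alpha chain of beta-hexosaminidase, differed by 0.19 and 0.18 and did not pass.

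Asah1 and Gusb were the soluble members that were lower. Asah1, the acid ceramidase, stood at 6.21, 6.69 and 6.78 on WT polyribosomes and at 6.74, 7.005 and 7.23 in total RNA, barely overlapping. It was lower in 6 of 6 lysates, by -0.43 ± 0.08 (SE, 1.34-fold lower, adjusted p = 0.000855). In Fmr1 KO it was lower by -0.62 ± 0.10 (SE, adjusted p = 0.000282), without overlap and with lysates from -1.11 to -0.28. Gusb, beta-glucuronidase, stood at 3.37, 3.64 and 3.70 against 4.06, 4.36 and 4.76. As with Atp6v0e, it reached the limit of 4 in total RNA alone, so no size or test of its difference is given. Without Atp6v0e and Gusb, 3 V-ATPase and 3 lysosomal genes were lower on WT polyribosomes.

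**Figure D2:**
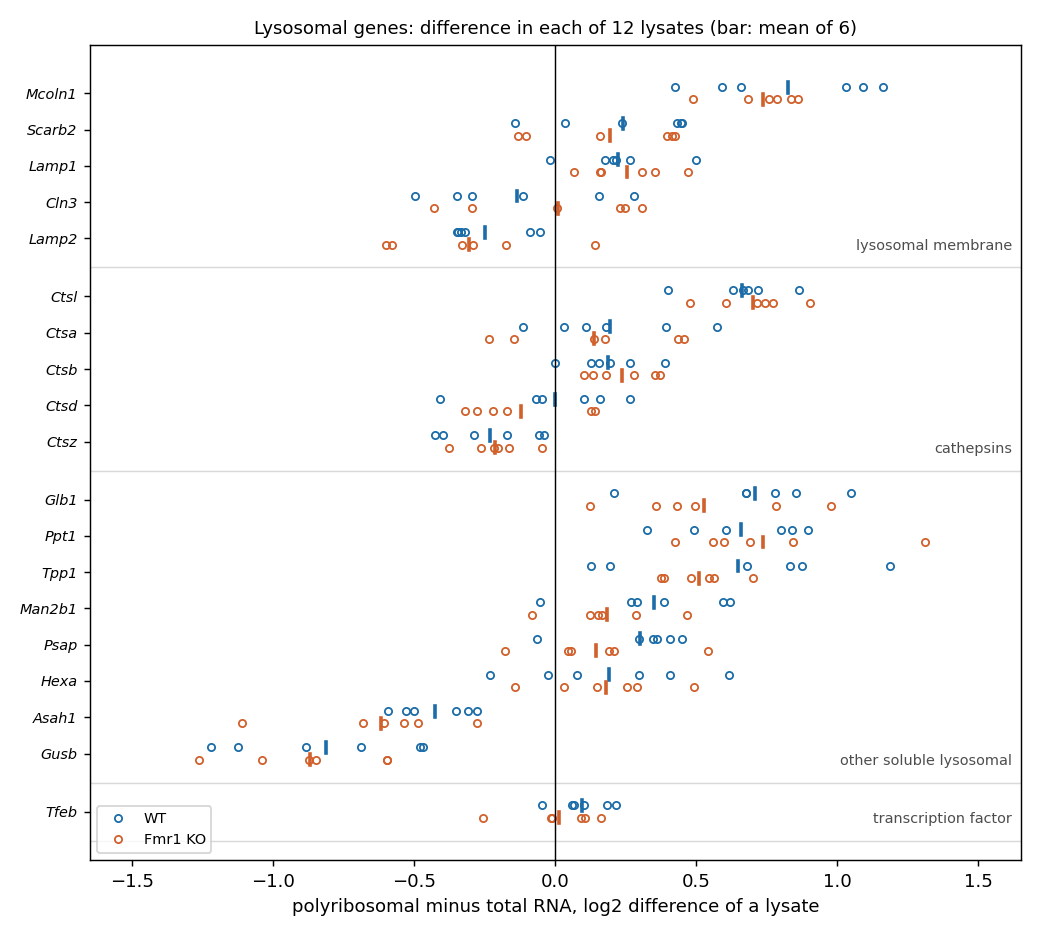
Polyribosomal minus total log2 difference (horizontal axis) of the 19 lysosomal genes (rows, by role), with a ring for each of 6 WT (blue) and 6 Fmr1 KO (orange) lysates and a bar at the mean of 6. Mcoln1, Ctsl, Glb1, Ppt1 and Tpp1 lie right of 0 in all 12 lysates, and Ctsz and Asah1 left of 0 in all 12. Gusb is drawn but not listed, because it passed the limit for testing through the total arrays alone.

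Of the 7 genes with TCACGTGA in the promoter, 3 were higher on WT polyribosomes (Mcoln1, Atp6v0d1 and Atp6v1a) and 3 did not pass (Ctsa, Ctsd and Cln3). Of all genes tested in WT, 37.5% were higher. The WT differences of the genes named ran from -0.14 for Cln3 to 0.83 for Mcoln1. In Fmr1 KO Atp6v1a did not pass (limma adjusted p = 0.0518), and its other probe set did not pass in WT (0.19). A link between the motif and polyribosomes was not tested. Atp6v0e is not counted here, because of its limit.

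For 17 members several probe sets were tested, which gave a second reading of each gene. In WT, the probe sets of 14 of these genes had the same sign, 3 had mixed signs, and Lamp2 was the gene that passed in both directions. In Fmr1 KO 16 had the same sign. The values spread by a median of 0.17 within a gene in WT. Atp6v1e1 spread most, with WT differences of 0.65, 0.43 and 1.24, all higher. Scarb2, which did not pass by its brightest probe set, was higher by 0.69 ± 0.12 (SE, adjusted p = 0.000347) at probe set 1460235_at. Atp6v0a2 gave 0.22, 0.68 and -0.01, of which 0.68 (probe set 1449870_a_at) passed. Both probe sets of Mcoln1 (0.83 and 0.98) and of Atp6v1g1 (-0.57 and -0.87) passed in the direction given above.

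**Figure D3:**
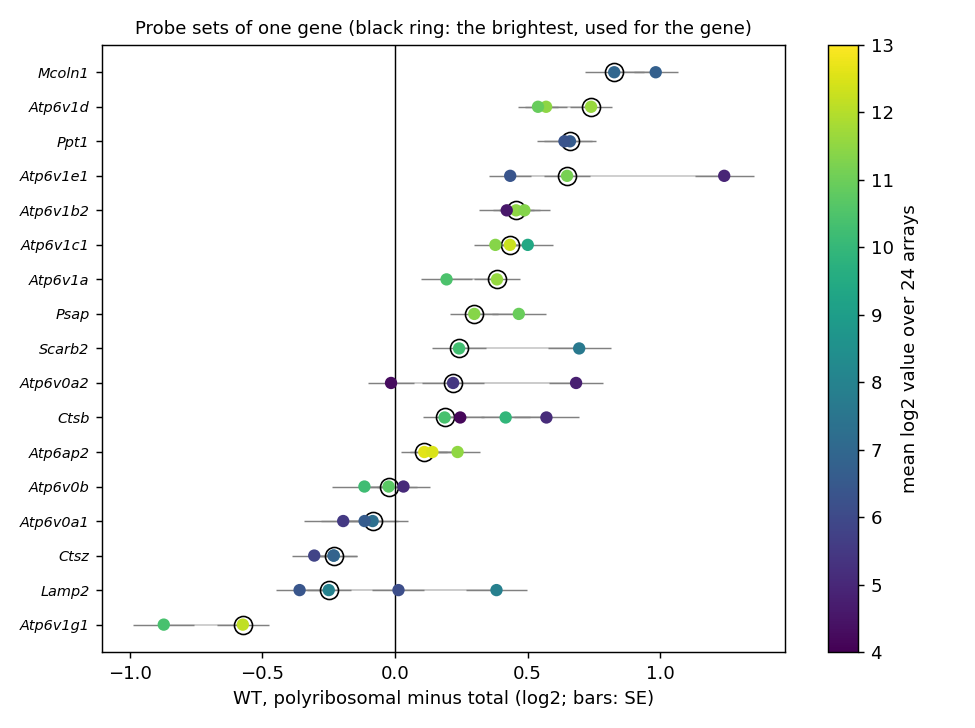
Polyribosomal minus total log2 difference in WT (horizontal axis, bars show the SE) of every tested probe set of the 17 members with several; colour gives the mean log2 value and a black ring marks the brightest. Lamp2 has probe sets on both sides of 0, from -0.36 to 0.38, while those of Mcoln1, Ppt1, Atp6v1b2 and Atp6v1c1 lie close together.

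The same comparison in the Fmr1 KO lysates used none of the WT arrays. Of 36 tested members 13 were higher on polyribosomes (36.1%, against 38.7% of all genes), 8 were lower (22.2%, against 28.2%) and 15 did not pass. The 8 lower ones include Atp6v0e and Gusb. In Fmr1 KO too these reached the limit of 4 in total RNA alone, so their fall was fixed in advance. By group, 6 V-ATPase and 7 lysosomal genes were higher, and 4 of each were lower, where the lysosomal count was 1 to 3 with any replicate left out. Set side by side, 12 members were higher and 8 lower in both genotypes, with Atp6v0e and Gusb among the 8. None passed in opposite directions. The matching shares of all genes were not computed, so these counts are not read as particular to the members. Atp6v1a, Man2b1 and Psap passed in WT alone and Ctsb in Fmr1 KO alone by their brightest probe sets, which is not a test of a difference. The other 3 probe sets of Ctsb were higher in WT too, by 0.42, 0.57 and 0.25 (adjusted p = 0.00215, 0.00165 and 0.0295). The other probe set of Psap was higher in Fmr1 KO too, by 0.23 (adjusted p = 0.0469). Across the 36 members, with Atp6v0e and Gusb included, Pearson's r between the WT and Fmr1 KO differences was 0.981. Across 9647 genes it was 0.979, so the members were not closer than genes at large. These correlations are across genes, which are not independent replicates.

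**Figure D4:**
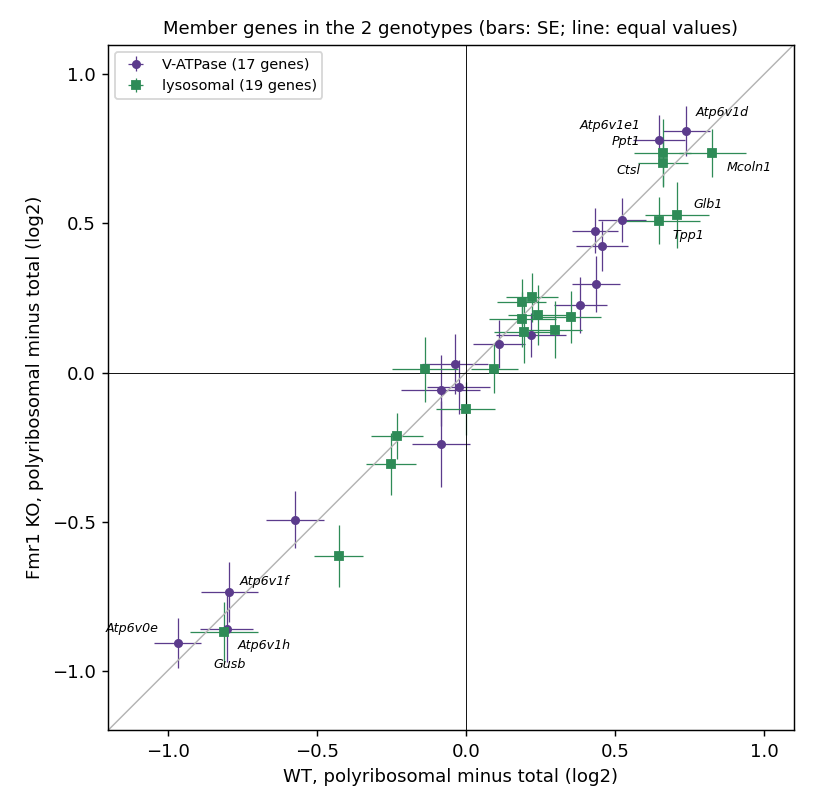
Polyribosomal minus total log2 difference of the 36 tested members in WT (horizontal axis) and in Fmr1 KO (vertical axis), with SE bars; purple circles are V-ATPase genes, green squares lysosomal genes, and the line marks equal values. The points follow the line from Atp6v1h (-0.80 and -0.86) to Atp6v1d (0.74 and 0.81), and the largest gap is 0.19 (Asah1).

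Whether the loss of Fmr1 changed the polyribosomal share was tested directly, by comparing the polyribosomal minus total differences of 6 Fmr1 KO and 6 WT lysates. None of the 36 members passed by limma, against 0% of all 9955 genes, and 0 members had an unadjusted p under 0.05, against 2.34% of all genes. By the brightest probe sets, genotype differences ran from -0.19 to 0.15. The members with the smallest unadjusted p were Asah1 (-0.19 ± 0.13, SE), Atp6v1a (-0.16 ± 0.12, SE) and Man2b1 (-0.17 ± 0.13, SE). The 95% intervals of these probe sets reached from -0.55, for Atp6v0a1, to 0.49, for Cln3. The dimmest probe set of Atp6v1e1, 1420038_at, differed by -0.52 ± 0.18 (SE, adjusted p = 0.999), against 0.13 at the brightest.

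Within polyribosomal RNA none of 34 tested members differed between Fmr1 KO and WT by limma, where 0.0103% of all genes passed, a single gene that was Fmr1 itself. No member had an unadjusted p under 0.05, against 2.22% of all genes. The differences, Fmr1 KO minus WT, ran from -0.22 to 0.13. Atp6v1a stood at 11.51, 11.89 and 11.98 in WT and 11.45, 11.59 and 11.78 in Fmr1 KO polyribosomal RNA, a difference of -0.21 ± 0.11 (SE). Man2b1 stood at 4.21, 4.56 and 4.89 in WT and 4.15, 4.33 and 4.71 in Fmr1 KO, a difference of -0.22 ± 0.12 (SE). Ctsd differed by -0.17 ± 0.16 (SE). The genotypes overlapped for each of these 3 genes.

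In total RNA none of 36 members passed, where 0.0413% of all genes (4 of 9690) did. An unadjusted limma p under 0.05 was found for 5.05% of all genes and for 1 member. This was Atp6v1e1, at 10.74, 10.89 and 11.01 in WT and 10.63, 10.76 and 10.82 in Fmr1 KO, a difference of -0.13 ± 0.06 (SE, adjusted p = 0.982). The groups overlapped, and the dimmest probe set of the gene, 1420038_at, pointed the other way, by 0.23 ± 0.06 (SE, adjusted p = 0.749). Atp6ap1 differed by 0.12 ± 0.07 (SE) and Tfeb by 0.09 ± 0.05 (SE). Intervals of the 36 members reached from -0.49 to 0.46, both for Atp6v0a1, whose values spread most.

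**Figure D5:**
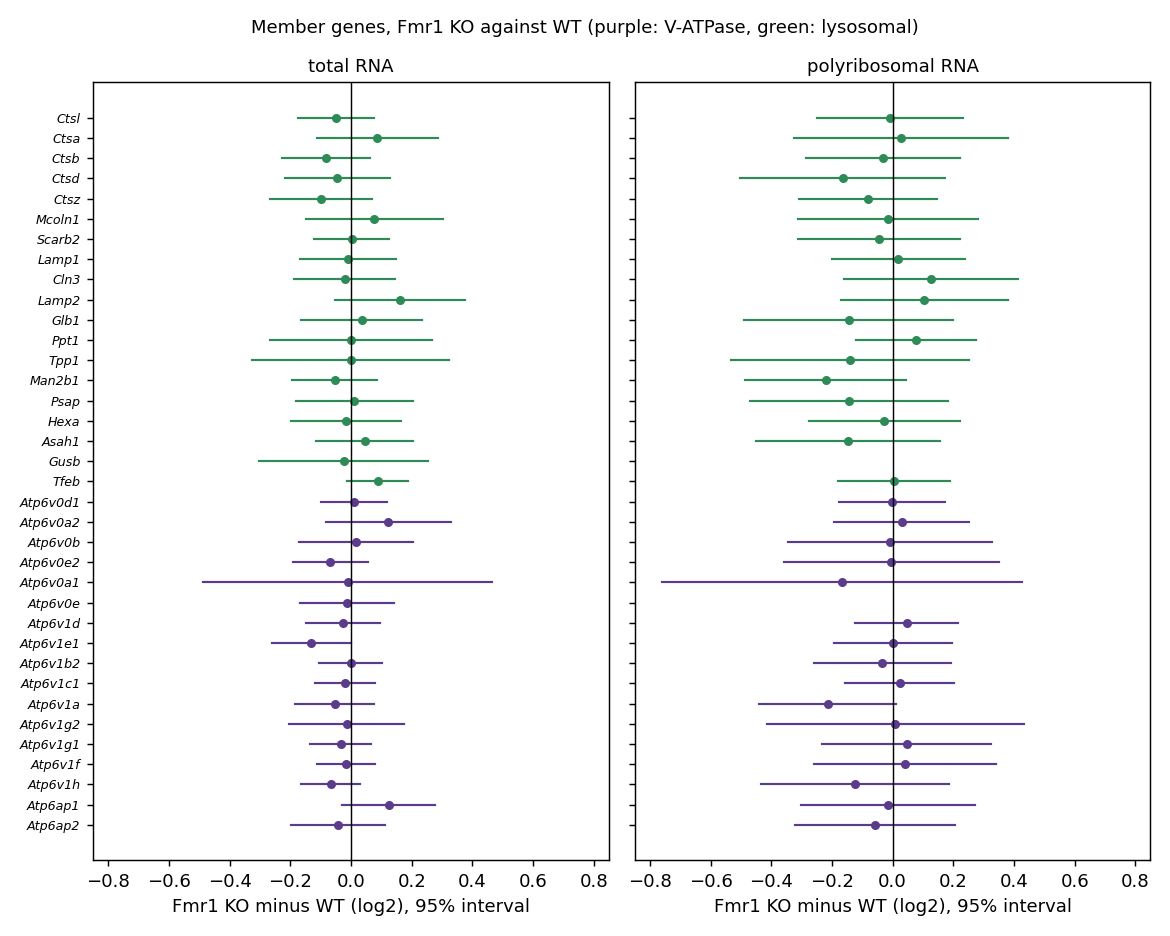
Fmr1 KO minus WT log2 difference with its 95% interval (horizontal axis) for each member (rows), in total RNA (left) and polyribosomal RNA (right); purple marks V-ATPase and green lysosomal genes. The points lie between -0.22 and 0.16, and Atp6v0e and Gusb have no value in polyribosomal RNA because they did not reach the limit for testing there.

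Lysosomal genes are abundant in microglia, the phagocytes of the brain, so the markers of these cells are given beside them. Of 12 microglial markers 10 stayed below the limit for testing in WT, among them Csf1r, Cx3cr1, P2ry12, Tmem119 and Trem2. Aif1 was lower on WT polyribosomes by -1.32 ± 0.11 (SE), and C1qb differed by 0.01. Over the 4 markers measured across the 24 arrays, the mean log2 value was 4.82 to 5.23 on WT polyribosomes and 5.14 to 5.48 in WT total RNA. In Fmr1 KO it was 4.76 to 5.06 and 4.89 to 5.32. The part of these cells in the results above was not tested. Ttr, an abundant mRNA of the choroid plexus, differed between Fmr1 KO and WT by -2.35 on polyribosomes and by -2.01 in total RNA. Neither passed the test, and the part of that tissue was not tested either.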

How the data were processed

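The deposited log2 values were made by the authors with GCRMA, per the submitters' processing notes, a method that corrects background, normalizes between arrays and summarizes probe sets. The log2 scale was judged from range and medians. The GCRMA version and whether all 24 arrays were normalized together are not given in the sources used here. Replicates are pools of 2 mice.

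Probe sets with a single symbol in the array annotation were used for genes. Two-sided tests used limma 3.58.1 under R 4.3.3 (lmFit and eBayes); p-values were adjusted by Benjamini-Hochberg over all probe sets tested, with a threshold of 0.05. Polyribosomal and total RNA were compared with the lysate as a block, because the protocol takes both from the same lysate. As a check, residuals were correlated between arrays of equal number: polyribosomal with total (r of 0.0211 to 0.525 for WT, 0.156 to 0.474 for Fmr1 KO), and WT with Fmr1 KO (-0.14 to 0.625 on polyribosomes, 0.133 to 0.532 in total RNA). The scripts were tested on simulated data. The number of arrays limits the precision. No 2 arrays were identical. Named in WT were up to 3 rises and 3 falls per role past the threshold. In genotype comparisons the 3 members with the smallest p were named, and so were the members of the gene pairs. Alternatives covered the filter, scaling, probe set choice, eBayes settings, the block and left-out replicates; averaging of equal-numbered lysates in the pair tests was added after seeing the data. The members and lists were chosen with earlier results of these data known. Figures used matplotlib 3.10.9 in Python 3.11.15.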

Additional observations from a re-analysis of the deposited data

Results flagged for a closer look

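Among 46 groups of 6 values examined, 1 held a value far from the others. The groups were lysate differences of named members, and V-ATPase or lysosomal mean log2 values on the arrays of a group. Chance flags about 1 in 20 such groups when they are independent, but these groups shared lysates. It was the polyribosomal minus total difference of Atp6v1e1 in WT, where replicate 1 stood at 0.98 and the other lysates at 0.52 to 0.62. The difference of Atp6v1e1 was 0.58 when that replicate was left out. No member moved in opposite directions in every lysate of the WT and Fmr1 KO groups.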

How the results depend on the processing

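Without probe sets whose names end in _x_at or _s_at, the median V-ATPase difference in WT was 0.22 in place of 0.11, and Lamp2 turned to 0.38 in WT and 0.44 in Fmr1 KO, because another probe set then stood for it. With the mean of all probe sets of a gene, Atp6v1e1 in total RNA went from -0.13 to 0.017 (Fmr1 KO minus WT), and Ctsd minus Ctsz passed (0.18, adjusted p = 0.0264). Leaving out replicates in turn, the median V-ATPase difference in WT ran from 0.12 to 0.21, highest without replicate 3. In each of these runs Atp6v0e, whose fall was fixed in advance, was not tested. The medians therefore rest on another set of genes than the 0.11. The lower lysosomal genes numbered 1 to 3 in place of 4, in both genotypes, partly because with 10 arrays Gusb no longer reaches the filter. Atp6v0a1 minus Atp6v0a2 ran from -0.45 to -0.27, and Ctsd minus Ctsz from 0.12 to 0.20, passing without replicate 4. With the replicate number as a replicate block in the pair tests (equal-numbered WT and Fmr1 KO lysates averaged, chosen after seeing the data), Atp6v0a1 minus Atp6v0a2, at -0.33, no longer passed (exact adjusted p = 0.0625), and the other calls held.

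Without the replicate block, 14 members were higher and 7 lower in WT (Ctsz and Lamp1 lost), and 14 and 8 in Fmr1 KO (Atp6v1a gained). Both lower counts include Atp6v0e and Gusb. With the replicate number as a replicate block in the 3 genotype comparisons, 0 members passed, as in every other alternative run there. Centring each array on its median moved the median of all genes in WT from 0.09 to 0.13. The members that lost their call in 1 or more alternatives were Ctsz, Lamp1 and Lamp2 in WT, and Ctsz, Lamp1, Lamp2, Atp6ap1 and Ctsb in Fmr1 KO; Atp6v0e and Gusb were not tested with a replicate left out. What the arrays can show is limited by their number: the median 95% half-width of a member was 0.20 for polyribosomal against total RNA in WT and 0.28 for the difference between genotypes.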

Other observations

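Genes around the lysosome that are not members were also higher in part and lower in part on WT polyribosomes, where 37.5% of all genes were higher and 28.4% lower. Of 13 measured genes of lysosomal mTORC1 docking and the TFEB family, 3 were higher and 6 lower. The lower ones held 4 subunits of the Ragulator scaffold, Lamtor1 (-2.62 ± 0.11, SE), Lamtor4 (-1.41 ± 0.13, SE), Lamtor2 (-1.15) and Lamtor5 (-0.89), chosen here after their values were seen. The GTPase Rraga (0.78) and the Rag regulator Flcn (0.82) were higher. Of 9 measured V-ATPase assembly and regulation genes, 3 were higher and 4 lower, among them the assembly factors Tmem199 (0.80) and Vma21 (-0.996) and the RAVE-type regulators Rogdi (0.67) and Dmxl1 (-0.71).

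Beside the same shares of all genes, 9 of 19 other hydrolases and activators were higher and 3 lower, with Arsa (0.93) and Ctss (0.61) at the top and Ids (-0.90) and Fuca1 (-0.36) at the bottom. Of 19 other membrane proteins 6 were higher and 5 lower, from Hgsnat (0.83) and Laptm4b (0.47) to Tmem192 (-1.62) and Tmem106b (-0.38). Of 17 genes that sort hydrolases to the lysosome, 7 were higher and 4 lower, with Ap1m1 (1.07) and Gnptg (0.57) against Ap3b1 (-0.49) and Gnptab (-0.49). None of these genes passed the test between Fmr1 KO and WT in polyribosomal RNA, in total RNA or in their difference.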
